A study of Mus musculus with 7 samples.

Results

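The 39 Hox cluster genes of the mouse were described across 7 RNA-seq libraries taken before, during and after OSKM trans-differentiation, the turning of mouse embryonic fibroblasts (MEF) into neural stem cells (NSC) with the reprogramming factors Oct4, Sox2, Klf4 and Myc. Members were all genes whose symbol is Hox, a cluster letter from a to d and a number, and the 39 found were set among 29686 genes with a value. There are 11 members in the Hoxa cluster on chromosome 6, 10 in Hoxb on chromosome 11, 9 in Hoxc on chromosome 15 and 9 in Hoxd on chromosome 2. Each group is 1 library: Tomato-positive OSKM NSC, Tomato-negative OSKM NSC, brain NSC, day 6 sorted cells, iPSC, ESC and MEF. Both OSKM NSC libraries came from mechanically subcloned B6/129 cells grown without feeders that carried Rosa26-TdTomato from a B6 mother and Col1a-OSKM from a 129 father. Their labels differ in being positive or negative for Nanog-Tomato, a reporter of past or present Nanog activity, and the number of clones behind each is not stated. The day 6 cells had the same strain and transgenes, came from Nanog-CreER reporter MEF kept in Dox and 4OHT, and were sorted as tdTomato-positive without feeders. Brain NSC were grown from dissociated brain vesicles of BDF2 embryos, aged E12.5 in one label and E13.5 in another. iPSC and MEF were of the A12 (Mbd3 flox/-) strain, so this MEF library is not of the strain that gave the OSKM NSC. ESC were the v6.5 line on MEF feeders, and a label on iPSC also names feeders, with question marks.

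Hox genes encode homeodomain transcription factors that set position along the head-to-tail axis. Within a cluster, low-numbered genes are used in the hindbrain and neck and higher-numbered genes further toward the tail, an order known as colinearity. Genes of the same number in different clusters, called paralogs, descend from 1 ancestral gene and share much of their homeobox. In neural tissue the forebrain and midbrain lie anterior to all Hox expression, while the hindbrain and spinal cord carry nested Hox domains. Fibroblasts keep the Hox pattern of the body site they came from, and in pluripotent cells the clusters are largely held silent by Polycomb proteins.

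Levels are the deposited RPKM, a read density per kilobase that is scaled to library depth, given as the length-weighted mean over the exons of each gene. The depth read back from the steps of these values was 19000000 reads in Tomato-positive OSKM NSC, the shallowest library, and between 27000000 and 58000000 reads in the others. A gene was compared where it reached 2 RPKM in either library and was counted as higher or lower at 2-fold or more on log2((a + 1)/(b + 1)), a scale that understates the change of low genes. With 1 library per group there is no replicate error and no test, and the intervals given for ratios of reads are exact 95% binomial intervals from reads over non-overlapping exons, and they cover counting error only. The 6 comparisons against MEF share the MEF library. Strain and culture differ with the groups and cannot be told apart from them. In such bulk libraries, fewer cells of a type and less RNA per cell cannot be told apart either. The labels fitted the markers: all 10 neural stem cell genes reached 2 RPKM in the 3 NSC libraries, all 8 pluripotency genes did so in ESC, iPSC and day 6 cells, and the 16 fibroblast genes were highest as a sum in MEF. The MEF library also held 9 of 9 myeloid genes at 2 RPKM or more, with sums of 0.206% to 3.66% of the MEF sum elsewhere, and the part of myeloid cells in its Hox levels was not tested.

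The Hox genes were most widely used in MEF, where 32 of 39 members reached 2 RPKM and none was at 0. Tomato-positive OSKM NSC came next with 20 members, followed by brain NSC with 14, day 6 with 12, ESC with 7, iPSC with 5 and Tomato-negative OSKM NSC with 2. The summed level of the 39 genes followed a similar order, at 158 RPKM in Tomato-positive OSKM NSC, 21.4 in the Tomato-negative ones, 109 in brain NSC, 71.8 at day 6, 47.8 in iPSC, 46.5 in ESC and 217 in MEF. Of the 39 genes, 34 reached 2 RPKM in at least 1 library and 24 reached 5 RPKM. The 5 that never reached 2 RPKM were Hoxb1, Hoxb13, Hoxc11, Hoxd1 and Hoxd9. The 2 OSKM NSC lines, which share strain, transgenes and subcloning, stood at opposite ends of the NSC libraries.

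**Figure D1:**
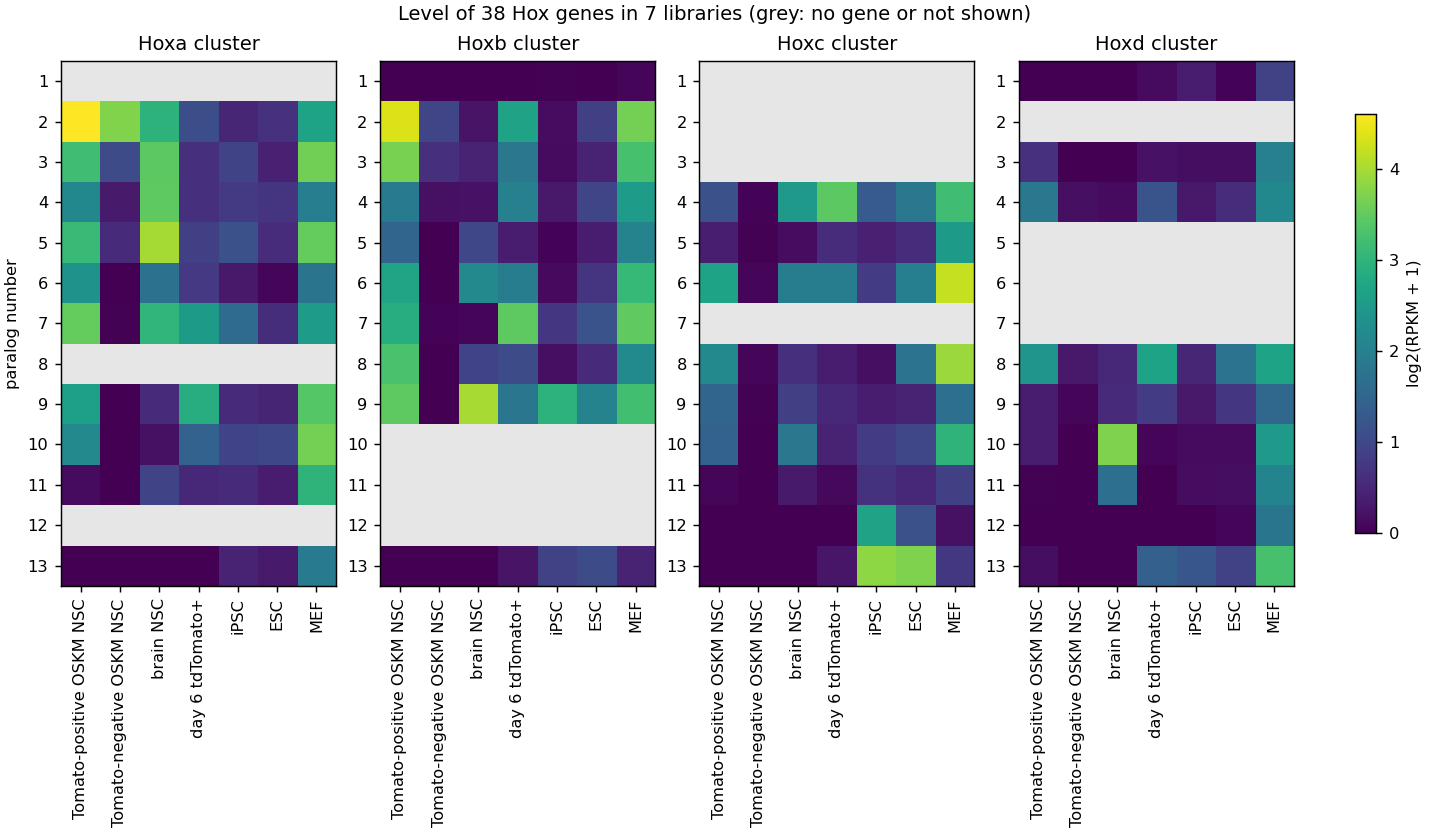
Heat map of log2(RPKM + 1) for 38 Hox genes, with a panel per cluster, paralog number from 1 at the top to 13 at the bottom, and a column per library. Tomato-negative OSKM NSC lie at or under 1.10 RPKM from Hoxa3 on, while Hoxc13 stands at 13.2 RPKM in iPSC and 12.2 RPKM in ESC.

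The libraries differed in how far toward the tail end of each cluster the members were expressed. In Tomato-positive OSKM NSC the highest paralog number at 2 RPKM or more was 10 in Hoxa, 9 in Hoxb, 8 in Hoxc and 8 in Hoxd. In Tomato-negative OSKM NSC it was 2 in Hoxa, and no member of the other clusters reached that level. Brain NSC reached number 7 in Hoxa, 9 in Hoxb, 10 in Hoxc and 11 in Hoxd. At day 6 the last numbers were 9 in Hoxa, 9 in Hoxb, 6 in Hoxc and 8 in Hoxd. The Hoxb number rests on Hoxb9 at 2.52 RPKM, which was at 1.64 RPKM over non-overlapping exons. Without Hoxb9, the last Hoxb member at day 6 was Hoxb7. In MEF the last numbers were 13 in Hoxa, 9 in Hoxb, 10 in Hoxc and 13 in Hoxd, so MEF alone held a member numbered 12 or 13 of Hoxa or Hoxd at 2 RPKM.

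Cluster by cluster, Tomato-positive OSKM NSC had Hoxa and Hoxb sums close to those of MEF and lower sums of Hoxc and Hoxd. Their Hoxa sum was 98.6% of the MEF sum, their Hoxb sum 115%, their Hoxc sum 25.3% and their Hoxd sum 24.3%. In Tomato-negative OSKM NSC the Hoxa sum was 27.2% of that in MEF and the sums of Hoxb, Hoxc and Hoxd were 2.92%, 0.305% and 1.28%. Hoxa made up 89.3% of all Hox RPKM in Tomato-negative OSKM NSC, against 32.4% in MEF. Brain NSC had 86.1% of the MEF sum for Hoxa, 36.6% for Hoxb, 21.3% for Hoxc and 45.9% for Hoxd. In iPSC and ESC the Hoxc cluster held 48.0% and 50.9% of all Hox RPKM, against 25.5% in MEF.

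**Figure D2:**
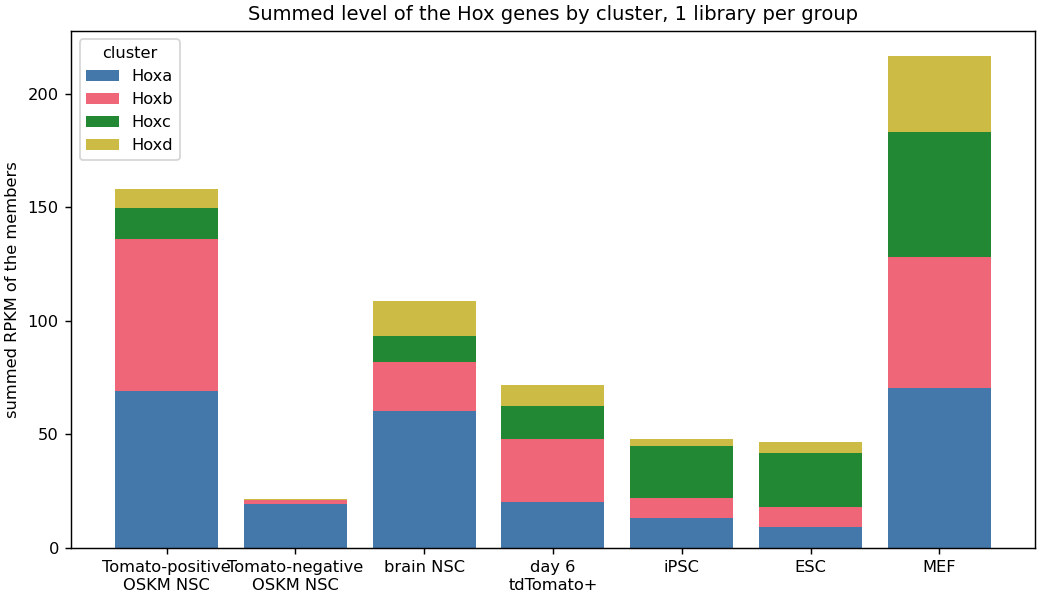
Stacked bars of summed RPKM of the Hox genes in each library, colored by cluster, 1 library per group. Tomato-positive OSKM NSC reach 158 RPKM and Tomato-negative OSKM NSC 21.4 RPKM, nearly all of it Hoxa, against 217 RPKM in MEF.

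Different members led in different libraries. Hoxa2 led in both OSKM NSC libraries, Hoxb9 in brain NSC, Hoxb7 at day 6, Hoxc13 in iPSC and ESC, and Hoxc6 in MEF. The lead of Hoxb9 rests on its last exon, which the annotation lists under 2 IDs at the same place and which counts for both. Over non-overlapping exons Hoxb9 had 9.55 RPKM in brain NSC, below Hoxa5 at 14.9, Hoxd10 at 12.2 and Hoxa4 at 10.1. The homeobox of 4 members that the differences turn on is shown because it lies whole in the last exon of each gene, and because paralogs are most alike there. Capitals mark codons within the recognition helix, the part of the homeodomain that lies in the major groove of DNA. Sequences are from the GENCODE M21 transcripts on mm10, 5′ to 3′ on the coding strand, at chr6:52163411-52163590 (minus strand) for Hoxa2, chr11:96352985-96353164 (plus) for Hoxb2, chr2:74694141-74694320 (plus) for Hoxd10 and chr15:102927210-102927389 (plus) for Hoxc13.
Hoxa2: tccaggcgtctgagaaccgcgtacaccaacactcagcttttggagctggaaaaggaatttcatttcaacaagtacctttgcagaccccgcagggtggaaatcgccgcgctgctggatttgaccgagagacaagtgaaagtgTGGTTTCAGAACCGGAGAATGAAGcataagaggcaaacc
Hoxb2: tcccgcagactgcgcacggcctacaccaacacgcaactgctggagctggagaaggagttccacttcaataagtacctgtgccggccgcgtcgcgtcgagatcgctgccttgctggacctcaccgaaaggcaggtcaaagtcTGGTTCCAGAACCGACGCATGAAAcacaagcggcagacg
Hoxd10: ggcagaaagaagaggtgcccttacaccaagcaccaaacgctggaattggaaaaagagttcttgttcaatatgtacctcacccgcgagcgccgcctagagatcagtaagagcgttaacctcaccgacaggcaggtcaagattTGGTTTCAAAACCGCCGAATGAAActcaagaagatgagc
Hoxc13: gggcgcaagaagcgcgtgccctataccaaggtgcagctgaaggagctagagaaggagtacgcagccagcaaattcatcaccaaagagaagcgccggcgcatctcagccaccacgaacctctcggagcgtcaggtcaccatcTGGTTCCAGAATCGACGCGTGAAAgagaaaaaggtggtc
The paralogs Hoxa2 and Hoxb2 were identical at 134 of these 180 bases (74.4%), and Hoxa2 and Hoxc13 at 86 (47.8%). Over the longest coding transcript of each member, the longest exact run shared by 2 members was 52 bases, between Hoxa6 and Hoxb4. It was 50 bases between Hoxb9 and Hoxc9, and the median over 741 pairs was 15 bases. A read within such a run could be placed on either gene, and the read length is not given in the sources used here.

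The anterior members, numbers 1 to 3, act in the hindbrain, the neck and the neural crest that comes from them. The kit named in the labels does not mark strand, so where exons of a member overlap another gene, antisense ones included, reads of the pair cannot be told apart. Hoxa2, which gives identity to hindbrain segments and to neural crest of the second pharyngeal arch, was at 23.4 RPKM in Tomato-positive OSKM NSC, 12.3 in the Tomato-negative ones, 6.86 in brain NSC, 1.16 at day 6, 0.403 in iPSC, 0.585 in ESC and 5.40 in MEF. Both OSKM NSC libraries stood above brain NSC and MEF, and the pluripotent libraries were lowest. Its last exon overlaps the gene model Gm28308, but the first exon, which overlaps no other gene, had 7.84 RPKM in Tomato-positive OSKM NSC, 4.17 in the Tomato-negative ones, 5.68 in brain NSC and 2.07 in MEF. On the first exon alone the brain NSC value therefore lay above that of Tomato-negative OSKM NSC.

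Hoxb2, the Hoxb paralog of Hoxa2 with a role in facial motor neurons, was at 19.6 RPKM in Tomato-positive OSKM NSC, 0.947 in the Tomato-negative ones, 0.182 in brain NSC, 5.33 at day 6, 0.106 in iPSC, 0.836 in ESC and 11.5 in MEF. It was high in Tomato-positive OSKM NSC and MEF, intermediate at day 6 and under 1 RPKM in every other library. Hoxb3, its neighbor in the cluster, stood at 11.9 RPKM in Tomato-positive OSKM NSC, 0.557 in the Tomato-negative ones, 0.360 in brain NSC, 2.55 at day 6, 0.0943 in iPSC, 0.371 in ESC and 8.58 in MEF. The same 3 libraries led for both genes. The last exons of Hoxb2 and Hoxb3 overlap the antisense Hoxb3os. Hoxa3, needed for the thymus and parathyroid, was at 8.19 RPKM in Tomato-positive OSKM NSC, 1.10 in the Tomato-negative ones, 9.90 in brain NSC, 0.533 at day 6, 0.927 in iPSC, 0.348 in ESC and 11.3 in MEF. Here brain NSC stood with Tomato-positive OSKM NSC and MEF, unlike at Hoxb2 and Hoxb3. Its last exon overlaps Hoxaas2, and an internal exon, which overlaps no other gene, had 5.43 RPKM in Tomato-positive OSKM NSC, 10.4 in brain NSC and 8.49 in MEF. The most upstream exon, of 76 bases and overlapping Hoxaas3 and Gm28308, had 15.0 RPKM in Tomato-positive OSKM NSC, 0 in brain NSC and 15.1 in MEF. Hoxd3, which patterns the neck vertebrae, was at 0.579 RPKM in Tomato-positive OSKM NSC, 0.00359 in the Tomato-negative ones, 0 in brain NSC, 0.170 at day 6, 0.119 in iPSC, 0.121 in ESC and 3.01 in MEF, and so reached 2 RPKM in MEF alone. Hoxb1, the marker of the fourth hindbrain segment, stayed at or under 0.0426 RPKM in all 7 libraries, and Hoxd1 stayed at or under 0.848 RPKM.

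Central members, numbers 4 to 8, pattern the neck and thorax and the spinal cord at the level of the forelimb and trunk. Hoxa4 was at 3.43 RPKM in Tomato-positive OSKM NSC, 0.254 in the Tomato-negative ones, 10.1 in brain NSC, 0.532 at day 6, 0.725 in iPSC, 0.643 in ESC and 2.93 in MEF, highest in brain NSC. Hoxa5, which patterns the junction of neck and thorax and the lung, was at 7.57 RPKM in Tomato-positive OSKM NSC, 0.469 in the Tomato-negative ones, 14.9 in brain NSC, 0.834 at day 6, 1.20 in iPSC, 0.507 in ESC and 10.5 in MEF. Both were therefore present in brain NSC, Tomato-positive OSKM NSC and MEF and under 1 RPKM in Tomato-negative OSKM NSC and at day 6. Hoxa6 was at 4.10 RPKM in Tomato-positive OSKM NSC, 0 in the Tomato-negative ones, 2.28 in brain NSC, 0.692 at day 6, 0.238 in iPSC, 0.0437 in ESC and 2.41 in MEF. Hoxa7, a trunk gene, was at 10.5 RPKM in Tomato-positive OSKM NSC, 0.0190 in the Tomato-negative ones, 7.19 in brain NSC, 4.67 at day 6, 2.06 in iPSC, 0.520 in ESC and 4.80 in MEF. In reads, Hoxa7 had 469 in Tomato-positive OSKM NSC against 2 in the Tomato-negative ones. Hoxa6 had none in Tomato-negative OSKM NSC. Exons of Hoxa7 overlap the antisense Hoxaas3.

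Of the central Hoxb genes, Hoxb4, Hoxb6 and Hoxb7 reached 2 RPKM in Tomato-positive OSKM NSC, day 6 and MEF, and Hoxb6 did so in brain NSC too. Hoxb4, known for its use in expanding blood stem cells, was at 2.76 RPKM in Tomato-positive OSKM NSC, 0.152 in the Tomato-negative ones, 0.165 in brain NSC, 3.04 at day 6, 0.241 in iPSC, 0.959 in ESC and 4.81 in MEF. Hoxb5 was at 1.82 RPKM in Tomato-positive OSKM NSC, 0 in the Tomato-negative ones, 0.977 in brain NSC, 0.285 at day 6, 0.0297 in iPSC, 0.275 in ESC and 3.15 in MEF, reaching 2 RPKM in MEF alone. Hoxb6 was at 5.47 RPKM in Tomato-positive OSKM NSC, 0 in the Tomato-negative ones, 3.51 in brain NSC, 2.86 at day 6, 0.0839 in iPSC, 0.644 in ESC and 7.45 in MEF. Hoxb7 was the leading member at day 6, with 6.32 RPKM in Tomato-positive OSKM NSC, 0.0369 in the Tomato-negative ones, 0.0574 in brain NSC, 9.99 at day 6, 0.668 in iPSC, 1.27 in ESC and 10.2 in MEF. In contrast to Hoxb6 it was near 0 in brain NSC. Hoxb8, which acts in the trunk and in myeloid progenitors, was at 8.79 RPKM in Tomato-positive OSKM NSC, 0 in the Tomato-negative ones, 0.909 in brain NSC, 1.08 at day 6, 0.143 in iPSC, 0.481 in ESC and 3.59 in MEF. It was highest in Tomato-positive OSKM NSC and at 0 in Tomato-negative OSKM NSC, where the depth allows up to 0.0270 RPKM.

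Among central Hoxc and Hoxd genes MEF led, apart from Hoxc4. Hoxc4 was at 1.21 RPKM in Tomato-positive OSKM NSC, 0.0349 in the Tomato-negative ones, 4.56 in brain NSC, 9.92 at day 6, 1.51 in iPSC, 2.60 in ESC and 8.18 in MEF, with day 6 above MEF. Hoxc5 was at 0.306 RPKM in Tomato-positive OSKM NSC, 0.0163 in the Tomato-negative ones, 0.114 in brain NSC, 0.498 at day 6, 0.342 in iPSC, 0.501 in ESC and 4.71 in MEF, in MEF alone above 1 RPKM. Hoxc6 was the leading member of MEF, with 5.39 RPKM in Tomato-positive OSKM NSC, 0.0452 in the Tomato-negative ones, 2.89 in brain NSC, 2.86 at day 6, 0.751 in iPSC, 2.98 in ESC and 17.3 in MEF. Hoxc8, which marks thoracic levels and motor pools of the forelimb, was at 3.47 RPKM in Tomato-positive OSKM NSC, 0.0565 in the Tomato-negative ones, 0.536 in brain NSC, 0.278 at day 6, 0.137 in iPSC, 2.39 in ESC and 14.2 in MEF. ESC stood well above iPSC for both Hoxc6 and Hoxc8. Hoxd4 was at 2.58 RPKM in Tomato-positive OSKM NSC, 0.135 in the Tomato-negative ones, 0.0963 in brain NSC, 1.28 at day 6, 0.251 in iPSC, 0.501 in ESC and 3.43 in MEF, and Hoxd8 at 4.26 RPKM in Tomato-positive OSKM NSC, 0.245 in the Tomato-negative ones, 0.434 in brain NSC, 5.39 at day 6, 0.401 in iPSC, 2.39 in ESC and 5.40 in MEF. Both were at or under 0.434 RPKM in brain NSC, iPSC and the Tomato-negative OSKM NSC. Exons of Hoxd4 overlap Hoxd3 and the gene model Gm28230.

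Posterior members, numbers 9 to 13, pattern the lower trunk, limbs and tail. Hoxa9, a thoracic and lumbar gene also used in blood progenitors, was at 5.11 RPKM in Tomato-positive OSKM NSC, 0 in the Tomato-negative ones, 0.491 in brain NSC, 6.28 at day 6, 0.460 in iPSC, 0.394 in ESC and 9.54 in MEF. Hoxa10, which patterns lumbar vertebrae and the uterus, was at 3.50 RPKM in Tomato-positive OSKM NSC, 0 in the Tomato-negative ones, 0.157 in brain NSC, 1.72 at day 6, 0.909 in iPSC, 0.988 in ESC and 11.5 in MEF. Both were highest in MEF and at 0 in Tomato-negative OSKM NSC, and day 6 stood above Tomato-positive OSKM NSC for Hoxa9 but below it for Hoxa10. Hoxb9, a thoracic gene, was at 9.98 RPKM in Tomato-positive OSKM NSC, 0 in the Tomato-negative ones, 15.1 in brain NSC, 2.52 at day 6, 6.85 in iPSC, 3.17 in ESC and 8.30 in MEF. Over non-overlapping exons it had 9.55 RPKM in brain NSC and 1.64 at day 6, and so stayed under 2 RPKM at day 6. It was the only Hoxb member to reach 2 RPKM in iPSC or ESC, and it had no read in Tomato-negative OSKM NSC, which allows up to 0.0278 RPKM. Hoxc10, a lumbar spinal cord gene, was at 1.74 RPKM in Tomato-positive OSKM NSC, 0 in the Tomato-negative ones, 2.56 in brain NSC, 0.353 at day 6, 0.768 in iPSC, 0.971 in ESC and 7.01 in MEF. Hoxd10, which specifies lumbar motor neurons, was at 0.289 RPKM in Tomato-positive OSKM NSC, 0 in the Tomato-negative ones, 12.1 in brain NSC, 0.0474 at day 6, 0.0943 in iPSC, 0.101 in ESC and 4.65 in MEF. Brain NSC were highest for Hoxd10, at 12.2 RPKM over its first exon and 12.1 RPKM over its last, so both exons carried the signal. The last exon overlaps the gene model Gm28309, and the first overlaps no other gene. Hoxd11, active in the forearm, was at 0.0178 RPKM in Tomato-positive OSKM NSC, 0 in the Tomato-negative ones, 2.22 in brain NSC, 0 at day 6, 0.116 in iPSC, 0.132 in ESC and 3.24 in MEF, so brain NSC and MEF alone reached 2 RPKM. The 2 exons of Hoxd11 differed. Its last exon, which overlaps Gm28309 and is the only one with a read estimate, had 5.24 RPKM in brain NSC and 11.9 in MEF. On that exon alone brain NSC lay below MEF by 2-fold or more (log2 ratio -1.05). The first exon went the other way, at 1.27 RPKM in brain NSC and 0.513 in MEF.

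Limb and tail-end genes were highest in MEF or in pluripotent cells. Hoxa11, which patterns the forearm, was at 0.0917 RPKM in Tomato-positive OSKM NSC, 0 in the Tomato-negative ones, 0.936 in brain NSC, 0.447 at day 6, 0.470 in iPSC, 0.292 in ESC and 6.94 in MEF. Hoxd13, the digit gene, was at 0.127 RPKM in Tomato-positive OSKM NSC, 0 in the Tomato-negative ones, 0 in brain NSC, 1.65 at day 6, 1.35 in iPSC, 0.855 in ESC and 8.58 in MEF. Hoxa13 and Hoxd12 reached 2.68 and 2.48 RPKM in MEF and stayed at or under 0.351 RPKM elsewhere. The terminal genes of Hoxc went the other way. Hoxc13, required for hair and nails, was at 0 RPKM in Tomato-positive OSKM NSC, 0 in the Tomato-negative ones, 0 in brain NSC, 0.212 at day 6, 13.2 in iPSC, 12.2 in ESC and 0.686 in MEF. Hoxc12, beside it, was at 0 RPKM in Tomato-positive OSKM NSC, 0 in the Tomato-negative ones, 0 in brain NSC, 0 at day 6, 5.32 in iPSC, 1.21 in ESC and 0.151 in MEF. Both were at 0 in all 3 NSC libraries, where 3 reads would be 0.0642 RPKM of Hoxc13 in Tomato-positive OSKM NSC, 0.0290 in Tomato-negative OSKM NSC and 0.0451 in brain NSC. Hoxb13 was highest in ESC at 1.11 RPKM and at 0 in the NSC libraries. Hoxc9, Hoxc11 and Hoxd9 were highest in MEF at 2.21, 0.825 and 1.89 RPKM.

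The 2 kinds of OSKM NSC were compared first, since they share strain, transgenes and derivation and differ in the labelled reporter state. Of 20 members that reached 2 RPKM in either library, 18 were higher in Tomato-positive OSKM NSC and none lower. Among all 15323 genes compared, 9.77% were higher and 5.5% lower. At 4-fold or more 15 members were higher, against 2.77% of all genes. The median log2 ratio over the 20 members was 2.45 (2.42 with members at 0 set to the level that 3 reads allow), against 0.187 over all genes. Hoxa2 was within 2-fold, at 23.4 RPKM in Tomato-positive OSKM NSC against 12.3 in the Tomato-negative ones. With libraries scaled to equal totals the all-gene median was -0.23 and the share of higher calls among all genes moved to 31.4%, and with median-of-ratios scaling to -0.04 and 44.7%, against 64.0% as deposited. The Hox counts were 18 higher and 0 lower under both.

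The largest RPKM folds between the OSKM NSC libraries were of central and posterior members, several of them at 0 in Tomato-negative OSKM NSC. On log2((a + 1)/(b + 1)), which weighs high members more, the large differences included Hoxa7 (3.50), Hoxb9 (3.46), Hoxb2 (3.40), Hoxb8 (3.29) and Hoxb3 (3.05). Hoxb9 had 435 reads in Tomato-positive OSKM NSC and none in Tomato-negative OSKM NSC, at least 321-fold higher against a floor of 3 reads per library. Hoxb8 was at least 287-fold higher and Hoxa9 at least 209-fold higher on the same rule. Hoxa7 was 554-fold higher in RPKM, with an interval on its reads of 143 to 4293. RPKM folds were smaller for several members nearer the front of the clusters. Hoxb2 was 20.7-fold higher (interval 16.0 to 27.2), Hoxa5 16.1-fold (11.4 to 23.4) and Hoxa3 7.45-fold (6.33 to 9.31). Hoxa2 was 1.91-fold higher (1.74 to 2.08).

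**Figure D3:**
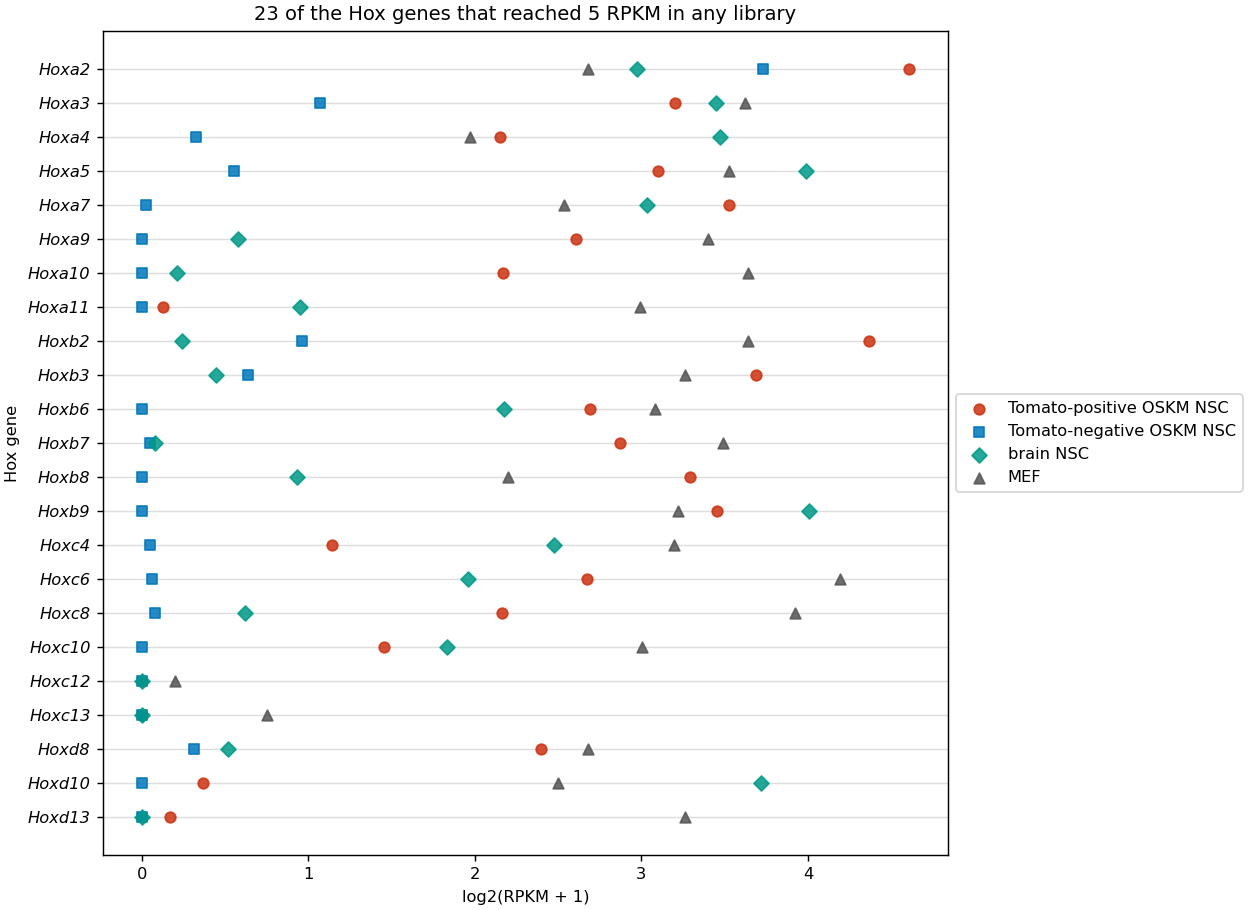
Level as log2(RPKM + 1) of 23 Hox genes that reached 5 RPKM in any library, with a point each for Tomato-positive OSKM NSC, Tomato-negative OSKM NSC, brain NSC and MEF. Tomato-negative points lie at or under 1.10 RPKM apart from Hoxa2, while Hoxd10 is highest in brain NSC at 12.1 RPKM.

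Against brain NSC, the neural reference of the study, the OSKM NSC libraries differed in opposite ways. In Tomato-positive OSKM NSC 11 of 24 members compared were higher and 4 lower, where 22.6% and 11.6% of all genes were. The 11 were led by Hoxb2 at 19.6 RPKM against 0.182 in brain NSC, Hoxb3 at 11.9 against 0.360 and Hoxb7 at 6.32 against 0.0574. The 4 lower members were Hoxd10 at 0.289 RPKM in Tomato-positive OSKM NSC against 12.1 in brain NSC, Hoxd11 at 0.0178 against 2.22, Hoxc4 at 1.21 against 4.56 and Hoxa4 at 3.43 against 10.1. In Tomato-negative OSKM NSC none of 14 members was higher and 12 were lower, where 10.3% and 7.01% of all genes were. The lowest log2 ratios there were those of Hoxb9 (-4.01), Hoxd10 (-3.72) and Hoxa5 (-3.44), of which Hoxb9 moved to -3.40 over non-overlapping exons. The share of higher calls among all genes in the first comparison was 66.1% as deposited, 38.1% with equal totals and 45.2% with median-of-ratios scaling. The Hox members lower in Tomato-positive OSKM NSC then numbered 7 with equal totals and 6 with median-of-ratios scaling.

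Against MEF, Tomato-positive OSKM NSC stood close to the fibroblast level for many Hoxa and Hoxb members and lower for most of Hoxc and Hoxd. Of 32 members compared, 2 were higher and 13 lower, where 26.9% and 17.3% of all genes were. The 2 higher ones were Hoxa2, at 23.4 RPKM against 5.40 in MEF (4.33-fold, interval 3.83 to 4.78), and Hoxb8, at 8.79 against 3.59. Lower were 5 of 6 members compared in Hoxc and 5 of 7 in Hoxd, against 3 of 11 in Hoxa and 0 of 8 in Hoxb. By position, 8 of 11 posterior members were lower, 4 of 15 central and 1 of 6 anterior. The lowest log2 ratios were those of Hoxd13 (-3.09), whose RPKM was 0.0148-fold that of MEF (0.00542 to 0.0324), and Hoxa11 (-2.86), at 0.0132-fold (0.00664 to 0.0397). Over all genes the share of higher calls was 60.8% as deposited, 54.8% with equal totals and 38.9% with median-of-ratios scaling, and Hoxb8 fell within 2-fold under both scalings. Over non-overlapping exons Hoxb8 was also within 2-fold on log2((a + 1)/(b + 1)), at 7.74 RPKM against 3.71 in MEF.

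In Tomato-negative OSKM NSC 30 of 32 members were lower than in MEF and 1, Hoxa2, was higher, where 21.3% and 24.4% of all genes were. The median log2 ratio was -2.50, also with members at 0 set to the level that 3 reads allow. Hoxc6 stood at 0.0452 RPKM against 17.3 in MEF and Hoxc8 at 0.0565 against 14.2. Hoxa2 was 2.27-fold higher (2.02 to 2.50), and it was within 2-fold (log2 ratio 0.84) with median-of-ratios scaling and without exons shared with other genes (0.75). The all-gene share of higher calls was 53.4% as deposited, 64.2% with equal totals and 42.8% with median-of-ratios scaling. In brain NSC 19 of 32 members were lower than in MEF and 3 higher, where 22.2% and 21.7% of all genes were. Among the higher ones were Hoxa4 at 10.1 RPKM in brain NSC against 2.93 in MEF and Hoxd10 at 12.1 against 4.65. The all-gene share of higher calls here moved to 62.2% with equal totals, against 49.4% as deposited.

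At day 6 the members were mostly lower than in MEF. None of 32 was higher and 23 were lower, where 22.4% and 31.2% of all genes were. Hoxc8 had 0.278 RPKM at day 6 against 14.2 in MEF, Hoxa3 0.533 against 11.3 and Hoxa5 0.834 against 10.5. The fall was uneven, since Hoxb7 had 9.99 RPKM against 10.2, Hoxd8 5.39 against 5.40, Hoxa7 4.67 against 4.80 and Hoxc4 9.92 against 8.18. The median member, of the 32 at 2 RPKM in MEF, was at 19.8% of its MEF level. In the same libraries the epithelial genes moved the other way, with all 6 of them higher at day 6.

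Tomato-positive OSKM NSC had more Hox RNA than day 6 cells, and Tomato-negative OSKM NSC less. In Tomato-positive OSKM NSC 11 of 21 members were higher and 1 lower than at day 6, where 33.8% and 13% of all genes were. The 1 lower was Hoxc4, at 1.21 RPKM against 9.92 at day 6. Hoxa2 was 20.2-fold higher (17.2 to 26.0) and Hoxa3 15.4-fold (10.7 to 17.2). In Tomato-negative OSKM NSC 11 of 13 members were lower and 1 higher than at day 6, where 17.8% and 29.8% of all genes were. The 1 higher was again Hoxa2, at 12.3 RPKM against 1.16 at day 6. The all-gene share of higher calls was 72.2% for Tomato-positive OSKM NSC and 62.6% for Tomato-negative OSKM NSC, against 47.8% and 48.4% with median-of-ratios scaling.

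In pluripotent cells the clusters were low as a whole, with a peak at the end of Hoxc. In iPSC 29 of 34 members were lower than in MEF and 2, Hoxc13 and Hoxc12, higher, where 26.1% and 26.5% of all genes were. In ESC 30 of 33 were lower and 1, Hoxc13, higher, where 23% and 29% of all genes were. Hoxc13 was 19.3-fold higher than in MEF in iPSC (15.3 to 24.6) and 17.8-fold in ESC (14.1 to 22.8). Both exons of Hoxc13 carried reads in the 2 libraries, with 6.52 RPKM in the first and 16.6 in the last in iPSC and 1.53 and 17.5 in ESC. Against iPSC, day 6 cells were higher for 9 of 14 members and lower for 3, where 16% and 26.3% of all genes were. The 3 were Hoxc13, at 0.212 RPKM at day 6 against 13.2 in iPSC, Hoxc12 at 0 against 5.32 and Hoxb9 at 2.52 against 6.85. The all-gene share of higher calls was 37.8% as deposited and 48.9% with median-of-ratios scaling.

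Between the pluripotent libraries, iPSC were lower than ESC for Hoxc8 (0.137 against 2.39 RPKM), Hoxd8 (0.401 against 2.39) and Hoxc6 (0.751 against 2.98), and higher for Hoxa7 (2.06 against 0.520) and Hoxc12 (5.32 against 1.21). These are 3 and 2 of 9 members compared, where 14.5% and 7.74% of all genes were lower and higher. Hoxc13 did not pass 2-fold, at 13.2 RPKM in iPSC against 12.2 in ESC. With equal totals 7 members reached 2 RPKM, of which none was lower and 3 were higher, and the all-gene share of higher calls was 54.1%, against 34.7% as deposited. In the same pair, 14 of 16 fibroblast and mesenchymal genes were lower in iPSC, and their sum was 1.47% of the MEF sum in iPSC against 12.3% in ESC. The part of feeder cells in the Hox levels of ESC was not tested.

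Fibroblast and mesenchymal genes also differed between the OSKM NSC libraries. Of 16 such genes, 15 were higher in Tomato-positive than in Tomato-negative OSKM NSC and none lower, where 9.77% and 5.5% of all genes were. Their sum was 6.75% of the MEF sum in Tomato-positive OSKM NSC, 0.558% in the Tomato-negative ones, 0.182% in brain NSC, 0.939% at day 6, 1.47% in iPSC and 12.3% in ESC. The sum is led by a few genes, and the median gene was at 14.03% of its MEF level in Tomato-positive OSKM NSC, 0.979% in the Tomato-negative ones, 0.0592% in brain NSC, 0.788% at day 6, 0.5825% in iPSC and 14.2% in ESC. Lum, a matrix proteoglycan gene, was at 151 RPKM in Tomato-positive OSKM NSC against 154 in MEF, and Dcn, another, at 317 against 374. In ESC they were at 308 and 741 RPKM. All 16 were above 0 in every library apart from Twist2, at 0 in brain NSC. The largest ratio was that of the collagen gene Col6a1, at 415 RPKM in Tomato-positive OSKM NSC against 16.5 RPKM in the Tomato-negative ones, followed by Postn, a matrix protein gene, at 223 against 10.4 RPKM. Over the 32 members at 2 RPKM in MEF, the median level was 59.8% of its MEF level in Tomato-positive OSKM NSC, 0.304% in the Tomato-negative ones, 21.03% in brain NSC, 19.8% at day 6, 7.30% in iPSC and 10.3% in ESC. The part of fibroblast-like cells in the Hox levels of Tomato-positive OSKM NSC was not tested.

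**Figure D4:**
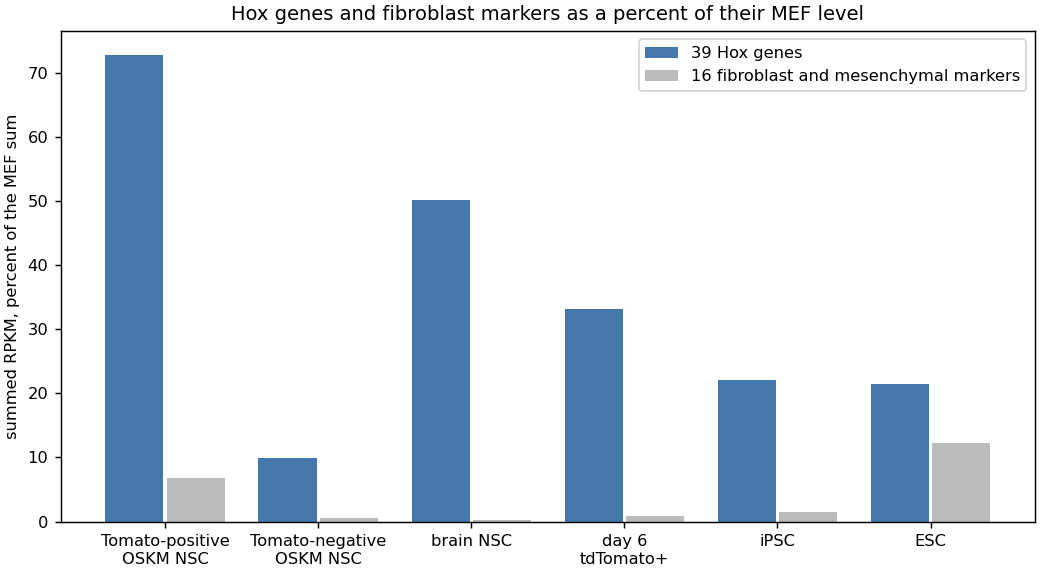
Summed RPKM of the 39 Hox genes (blue) and of 16 fibroblast and mesenchymal markers (grey) in 6 libraries, as a percent of the same sum in MEF. Tomato-positive OSKM NSC reach 72.9% for Hox and 6.75% for the markers, while ESC reach 21.4% and 12.3%; the median marker gene was at 14.03% and 14.2% of its MEF level in these 2 libraries.

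In brain NSC, several members had reads mainly over the first exon. Hoxc6 had 9.63 RPKM over its first exon and 0.355 over its last, against 17.6 and 17.2 in MEF. Hoxb5 had 2.79 RPKM over its first exon and none over its last, which overlaps Hoxb5os, against 1.59 and 3.99 in MEF. Hoxb8 had 1.85 and 0.159, against 0.840 and 7.36 in MEF. Hoxa11 had 2.68 over its first exon, which overlaps the antisense Hoxa11os, and none over its last. Because the homeobox lies in the last exon, the gene-level values of these 4 in brain NSC hold few or no reads from the homeobox exon. Hoxa5, Hoxb9 and Hoxd10 had signal over both exons, with 10.8 and 9.18 RPKM for Hoxb9. The gene-level 15.1 RPKM of Hoxb9 lies above both, as the second ID of its last exon stood at 24.1 RPKM.

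**Figure D5:**
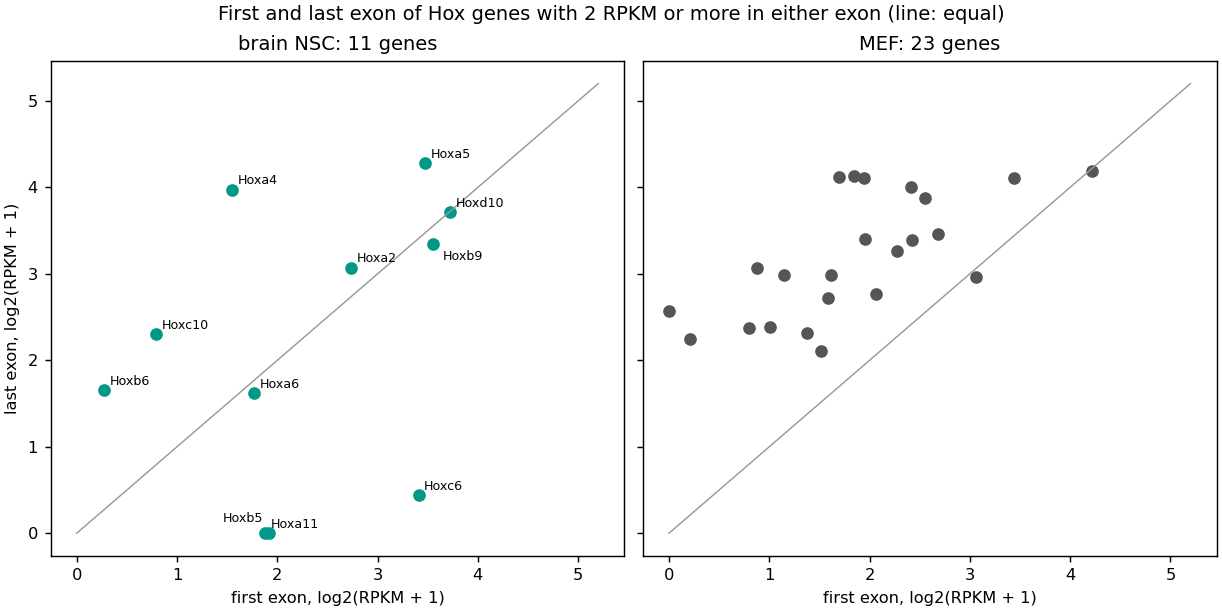
First exon against last exon, both as log2(RPKM + 1), for Hox genes with 2 RPKM or more in either, where the most upstream and most downstream annotated exons could be used, in brain NSC (left, 11 genes named) and MEF (right, 23 genes). Points below the line have more signal in the first exon, as for Hoxc6, Hoxb5 and Hoxa11 in brain NSC.

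Promoter sequence was at hand in the RefSeq table for 22 of the 39 members, as 24 windows of 250 bases before to 50 after a start on GRCm38.p6. They held a median of 14.5 CpG, against 7 in all 32851 promoters. Of the 24, 5 had the Cdx-type motif TTTATG on either strand, where 11.9% of all promoters do, and 4 had the Pbx-Hox composite TGATNNAT, where 8.85% do. None had 2 copies of AGGTCA with a spacer of 5 bases, the retinoic acid response element in its perfect form, found in 0.00913% of all promoters. The promoters of 3 members described above are shown, with these motifs in capitals: Hoxa2 at chr6:52164782-52165081 (minus strand), within 2-fold between the OSKM NSC, Hoxb8 at chr11:96281655-96281954 (plus), high in Tomato-positive OSKM NSC, and Hoxd10 at chr2:74691641-74691940 (plus), high in brain NSC.
Hoxa2: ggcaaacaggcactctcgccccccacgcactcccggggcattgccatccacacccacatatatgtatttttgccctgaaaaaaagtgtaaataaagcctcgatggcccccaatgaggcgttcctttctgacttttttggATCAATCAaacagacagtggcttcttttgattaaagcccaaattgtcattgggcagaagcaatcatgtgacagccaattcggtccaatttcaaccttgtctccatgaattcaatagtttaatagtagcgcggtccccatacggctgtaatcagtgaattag
Hoxb8: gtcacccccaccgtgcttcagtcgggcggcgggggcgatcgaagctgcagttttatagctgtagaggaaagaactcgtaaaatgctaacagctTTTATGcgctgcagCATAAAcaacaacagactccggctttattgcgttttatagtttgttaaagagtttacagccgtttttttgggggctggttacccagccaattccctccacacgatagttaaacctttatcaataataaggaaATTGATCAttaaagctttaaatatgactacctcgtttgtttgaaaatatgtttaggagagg
Hoxd10: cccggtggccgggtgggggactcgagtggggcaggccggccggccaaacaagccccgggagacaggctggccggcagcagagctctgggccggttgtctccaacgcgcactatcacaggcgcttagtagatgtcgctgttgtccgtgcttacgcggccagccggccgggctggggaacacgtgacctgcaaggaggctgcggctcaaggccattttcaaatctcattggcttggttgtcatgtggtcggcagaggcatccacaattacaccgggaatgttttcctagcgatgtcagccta
Hoxa2 held ATCAATCA, a match to TGATNNAT on the other strand that began 111 bases before the start. Hoxb8 held TTTATG and CATAAA, beginning 157 and 143 bases before the start, and ATTGATCA 11 bases before it. Hoxd10 held none of the 3 motifs in this window. A match describes the letters and is not evidence of a bound site.

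Hox proteins bind DNA with cofactors of the TALE homeobox class, and these were abundant in the NSC. All 9 listed genes of the Pbx, Meis and Pknox families were at 8.94 RPKM or more in both OSKM NSC libraries. None of the 9 differed 2-fold between Tomato-positive and Tomato-negative OSKM NSC, where 9.77% of all genes were higher and 5.5% lower. For so few genes, a count of 0 is near those shares. Meis1 was at 41.7 RPKM in Tomato-positive OSKM NSC, 37.5 in the Tomato-negative ones, 20.4 in brain NSC, 6.12 at day 6, 0.688 in iPSC, 0.891 in ESC and 17.9 in MEF. At day 6, 7 of the 9 were lower than in MEF and 2 higher, where 31.2% and 22.4% of all genes were, with Pknox2 at 0.557 RPKM against 8.15 in MEF and Pbx2 at 13.7 against 52.6. In iPSC 4 of 9 were lower than in MEF and none higher, where 26.1% and 26.5% of all genes were. In ESC 5 were lower and 1 higher, where 23% and 29% of all genes were.

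The Polycomb group keeps silent Hox genes repressed, and the trithorax group keeps active ones open. Of 22 Polycomb subunits, 1 was higher and 2 lower in Tomato-positive than in Tomato-negative OSKM NSC, and of 10 trithorax and H3K27 demethylase genes none was, where 9.77% of all genes were higher and 5.5% lower. The Polycomb share is near that of all genes. The 1 higher was Pcgf2, at 38.7 RPKM in Tomato-positive against 6.43 in Tomato-negative OSKM NSC. Of 16 genes beside the clusters, 10 were compared and none differed 2-fold. For 10 genes, as in this list and the trithorax one, a count of 0 is near the shares of all genes. Halr1, a noncoding RNA at the Hoxa end, was at 27.7 RPKM in Tomato-positive OSKM NSC, 2.26 in the Tomato-negative ones, 2.69 in brain NSC, 0.225 at day 6, 84.9 in iPSC, 4.31 in ESC and 0.396 in MEF. It was the 1 of 11 listed Hox-cluster noncoding RNAs that could be matched.

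Genes of the retinoic acid pathway, which induces anterior Hox genes, were compared in the same way. Of 13 compared, 9 were higher in Tomato-positive than in Tomato-negative OSKM NSC and none lower, where 9.77% and 5.5% of all genes were. The synthesis enzyme gene Aldh1a3 was at 82.6 RPKM in Tomato-positive against 2.07 in Tomato-negative OSKM NSC, and the binding protein genes Crabp1 at 109 against 3.56 and Crabp2 at 8.99 against 0.767. In brain NSC Aldh1a3 was at 0.0911 RPKM, Crabp1 at 0.0462 and Crabp2 at 3.46. Against MEF, 7 of 14 were lower and 1 higher in Tomato-positive OSKM NSC, where 17.3% and 26.9% of all genes were. In Tomato-negative OSKM NSC 10 were lower and none higher, where 21.3% and 24.4% of all genes were.

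Of 8 trunk axis factors, 3 were compared between the OSKM NSC libraries, with 1 higher and 1 lower in Tomato-positive OSKM NSC. Over all genes, 9.77% were higher and 5.5% lower. The higher one was T, the mesoderm gene brachyury, with 115 RPKM in Tomato-positive OSKM NSC against 12.6 in the Tomato-negative ones. T stayed at or under 1.27 RPKM in the other libraries. The lower one was Gbx2, with 21.9 RPKM in Tomato-negative OSKM NSC against 9.62 in the Tomato-positive ones. Gdf11 did not pass 2-fold, with 25.9 RPKM in Tomato-negative OSKM NSC against 17.2 in the Tomato-positive ones. Cdx1, a direct regulator of Hox genes, was at 24.03 RPKM in iPSC, 9.80 in ESC, 0.114 in MEF and 0 in the NSC libraries, while Cdx2 and Cdx4 stayed at or under 0.153 RPKM. Of 14 brain regional genes anterior to Hox, 12 were compared between the OSKM NSC libraries, with 4 higher and 6 lower in Tomato-positive OSKM NSC, where 9.77% and 5.5% of all genes were. Lhx2, a forebrain gene, was at 0.950 RPKM in Tomato-positive OSKM NSC, 13.1 in Tomato-negative OSKM NSC and 9.78 in brain NSC. Nkx6-1, a ventral neural tube gene, was at 14.8 RPKM in Tomato-positive OSKM NSC, against 0.125 in the Tomato-negative ones and 0 in brain NSC.

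Across the 39 members, the level patterns of the libraries were alike to different degrees. On log2(RPKM + 1), Pearson's r over the 39 genes was 0.756 between iPSC and ESC, 0.629 between Tomato-positive OSKM NSC and MEF, 0.615 between Tomato-positive OSKM NSC and day 6, 0.481 between Tomato-positive and Tomato-negative OSKM NSC, 0.458 between Tomato-positive OSKM NSC and brain NSC and 0.372 between Tomato-negative OSKM NSC and brain NSC. Over 18697 genes the last 3 values were 0.954, 0.895 and 0.945. Points are genes, which share clusters and are not independent replicates, so these values describe the libraries.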

How the data were processed

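Poly-A RNA-seq libraries of 7 mouse cell populations, 1 per group, were prepared with the TruSeq RNA kit v2 per the labels' protocols, a kit that does not mark strand. The deposited values are RPKM per exon, normalized by the authors before deposit; the submitters' processing notes list the genome build mm10, TopHat2 2.0.10, CASAVA 1.8.2, Bowtie and bedtools, without roles. Read length and the use of strand in counting are not given in the sources used here.

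Of 279252 exons, 270168 (96.7%) were matched by ID to GENCODE M21, giving 29686 genes, each the length-weighted mean of its exons. Whole reads could be read back for 96.3% to 96.5% of values per library, within 0.01 reads, which gave the depths; for 29 of 147 Hox exons the length was inferred from these steps, and Hoxd12 has no read estimate. Ratios are log2((a + 1)/(b + 1)) with a pseudocount of 1 RPKM, for genes at 2 RPKM or more in either library. With 1 library per group no test was made. Where a library had 0 reads, folds are lower bounds against 3 reads in that library. The calculation was tested on simulated data.

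The members, comparisons and other gene lists were chosen with earlier results of these data known. Values in every library are given for members that reached 5 RPKM or passed 4-fold in any comparison, apart from 1 that is not reported here; of other lists, counts and up to 4 leading genes are given, and single genes beyond that were chosen after their values were seen. Alternatives were 2 scalings, a pseudocount of 0.25 RPKM, no level minimum, leaving out exons shared with other genes, and using only exons that do not overlap each other. The last alternative also left out the first exon of Hoxd11, which has no read estimate. Promoters come from RefSeq on GRCm38.p6. Computations used Python 3.11.15, pandas 2.3.3, numpy 2.4.6, scipy 1.17.1, matplotlib 3.10.9 and biopython 1.88.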

Additional observations from a re-analysis of the deposited data

Results flagged for a closer look

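Some members stood on opposite sides of the same library in the 2 kinds of OSKM NSC. Against MEF, Hoxb8 had a log2 ratio of 1.09 in Tomato-positive OSKM NSC and -2.20 in Tomato-negative OSKM NSC. The first value was within 2-fold at 0.96 with equal totals and 0.69 with median-of-ratios scaling. It was also within 2-fold on the same scale over non-overlapping exons, at 7.74 RPKM against 3.71 in MEF. Against day 6 cells, Hoxa7 was at 1.03 in Tomato-positive OSKM NSC against -2.48 in the Tomato-negative ones. For Hoxb2 the log2 ratios to day 6 were 1.71 in Tomato-positive OSKM NSC against -1.70 in the Tomato-negative ones. Hoxb3 was at 1.86 in Tomato-positive OSKM NSC against -1.19 in the Tomato-negative ones, and Hoxb9 at 1.64 in Tomato-positive OSKM NSC against -1.81 in the Tomato-negative ones. Over non-overlapping exons the day 6 level of Hoxb9 was 1.64 RPKM, so its comparison with Tomato-negative OSKM NSC then falls under the 2 RPKM minimum. With 1 library per group these differences were not tested, and each pair shares its MEF or day 6 library.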

How the results depend on the processing

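The count of members higher in Tomato-positive than in Tomato-negative OSKM NSC was 18 as reported and between 16 and 22 under the 6 alternatives, while that of lower members, 0 as reported, was 1 with shared exons left out. Members higher in Tomato-positive OSKM NSC than in MEF numbered 2 as reported, 1 with equal totals, 1 with median-of-ratios scaling, 4 with shared exons left out and 1 with exons that do not overlap each other. Those higher in Tomato-negative OSKM NSC than in MEF numbered 1 as reported, 2 with equal totals, 0 with median-of-ratios scaling and 2 with a pseudocount of 0.25 RPKM. With shared exons left out, 2 members in place of 1 were higher in ESC than in MEF, 2 in place of 1 were higher in Tomato-negative OSKM NSC than at day 6, and 1 in place of 2 was higher in iPSC than in ESC, as with exons that do not overlap each other (1). Members lower in Tomato-positive OSKM NSC than in brain NSC numbered 7 with equal totals in place of 4. Those lower in Tomato-positive OSKM NSC than at day 6 numbered 3 with median-of-ratios scaling and 2 with no level minimum, in place of 1. With equal totals 0 members were lower in iPSC than in ESC, in place of 3, where fewer members were compared. Hoxb5 in brain NSC against MEF reversed, with a log2 ratio of 0.55 with shared exons left out against -1.07 as reported, as its last exon, without reads in brain NSC, was then not counted. The cause of the other shifts was not tested. The all-gene median log2 ratio as deposited lay between -0.23 and 0.50 over the comparisons. No paired analysis was possible because each group has 1 library. Depth limits low members most in Tomato-positive OSKM NSC, the shallowest library.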
